A study of Ovis aries with 6 samples.

Results

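The genes described here are the keratins, claudins, integrins, cadherins, laminins, collagens and matrix metalloproteinases of sheep milk cells, 96 genes of the 11285 that could be given a symbol. They were chosen by symbol alone, so no measured value entered the choice, with KRT8 and ITGAX set aside and each gene represented by its transcript of highest mean level. RNA was sequenced from the somatic cells of milk, the epithelial and immune cells that are shed into it, from 3 Comisana ewes at day 90 of lactation. Each ewe gave a control library, on hay and a commercial concentrate fed for 3 weeks, and a linseed library, after 3 further weeks on a concentrate with 20% extruded linseed in dry matter. The labels hold no field for diet, and the groups rest on the letter of each title read with the series' own account of its diets. Every ewe received linseed second, so diet and time between samplings cannot be told apart.

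Epithelial cells are held together by claudins, which seal the tight junction, and by cadherins, which form the adherens junction beneath it, while keratins are the intermediate filaments that brace the cell from within. Integrins bind cells to matrix proteins such as laminins and collagens, and a separate set of them, built on the beta-2 chain ITGB2, serves leukocytes in binding vessel walls and targets. Matrix metalloproteinases cut the matrix itself. In the mammary gland, tight junctions close the alveolus during lactation, and metalloproteinases are known for remodelling the gland when milking ends and for entering milk with leukocytes.

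The libraries held 4941935 to 22644050 reads, as solved from the steps of the deposited values, and the deepest had 4.58 times the reads of the shallowest. Values are RPKM, which corrects reads for transcript length and library size, so levels may be compared between genes. Both libraries of sheep 3 stood apart: milk protein genes took 7.85% and 1.88% of all RPKM there, against 28.9% to 58.9% in the other 4. Markers of epithelium (EPCAM, 4.37 to 214.5 RPKM), macrophages (CD68, 70.4 to 923.2), neutrophils (S100A9, 222.4 to 1789.9) and T cells (CD3E, 4.08 to 327.8) were present in all 6 libraries. Of 5 fibroblast markers matched of 8 listed, DCN and COL3A1 were at 0 throughout, and PDGFRA and LUM reached at most 0.0177 and 0.10 RPKM. COL1A2, the remaining one, reached 0.439 RPKM in linseed sheep 1 and was at 0 in control sheep 1 and 3.

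Of the 96 genes, 34 had a mean of at least 1 RPKM and were tested: 6 of 29 keratins, 5 of 13 claudins, 12 of 17 integrin family genes, 2 of 10 cadherins, 2 of 4 laminins, 0 of 11 collagens and 7 of 12 metalloproteinases. A further 44 were detected below that level and 18 were at 0 in every library. Nearest to the limit, KRT6A (1.05 RPKM) and CDH24 (1.06) stood inside, and CLDN8 (0.696) and ITGB3BP (0.684) outside. Over the 6 libraries together, the tested genes had 183 reads or more, and the median was 1307.

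No gene of these families passed between the diets in the comparison of 3 control with 3 linseed libraries (limma, 0 of 34 at an adjusted p under 0.05, smallest 0.263), as 0% of all 15891 tested transcripts did. At an unadjusted p under 0.05, 5 of the 34 were lower with linseed and 0 higher, where 7% of all tested transcripts were lower and 8.5% higher. Because the same ewes gave both groups, the fit was also made with the sheep as a block. There 2 of the 34, or 5.88%, fell and 0 rose, against 2.62% of all tested transcripts called in either direction (1.34% lower and 1.28% higher). The 2 were the collagenase genes MMP13 and MMP1. MMP13 met the level filter only through its controls, with a linseed mean of 0.276 RPKM. These are bulk samples, in which fewer cells of a type and less RNA per cell cannot be told apart.

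**Figure D1:**
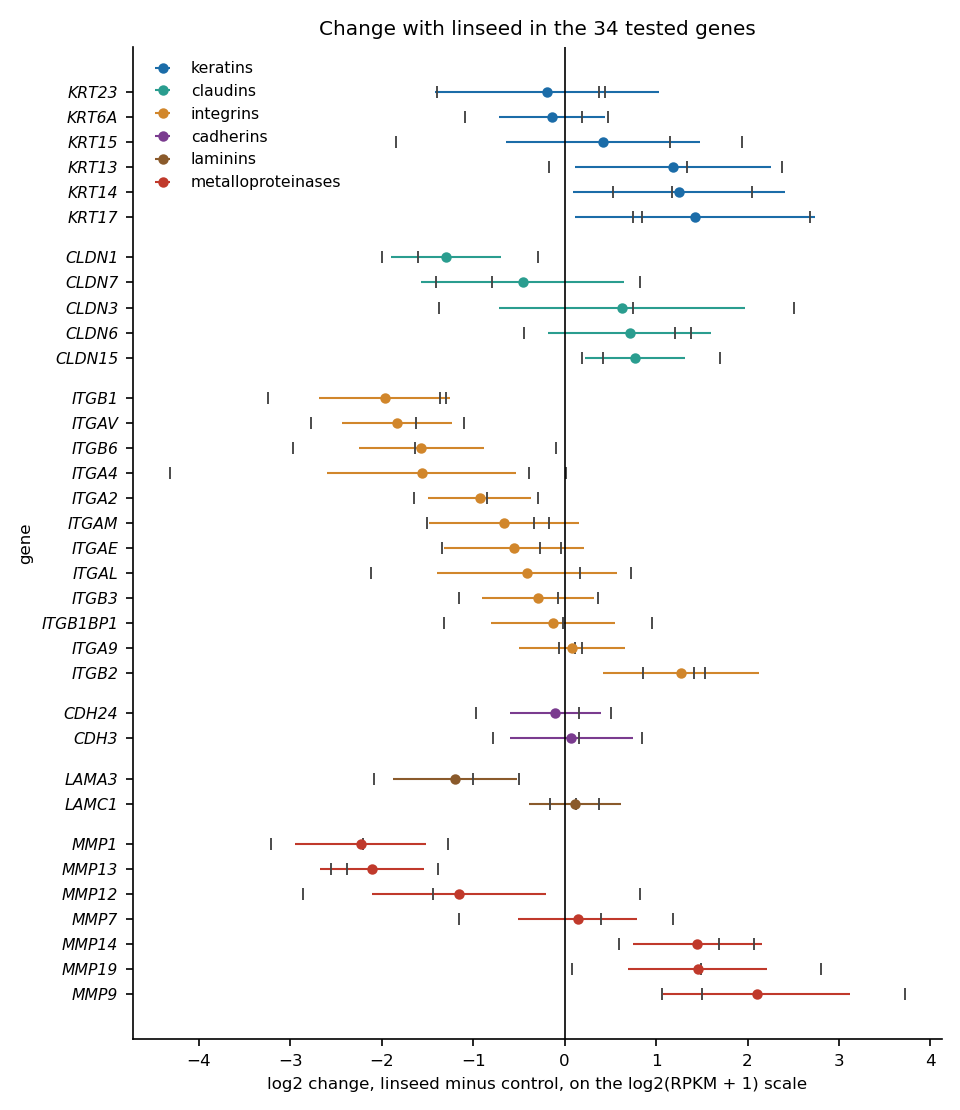
Log2 change with linseed (x axis, linseed minus control on the log2(RPKM + 1) scale) for the 34 tested genes by family (y axis). Circles are fitted changes, horizontal lines 1 standard error to each side from the fit without the block, and short vertical marks the change in each of the 3 sheep. MMP1 and MMP13 lie furthest left among the fitted values with all 3 sheep on the same side, while the marks of most keratins and claudins span 0.

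The median change of the 34 tested genes was -0.13 on the log2(RPKM + 1) scale, and that of all tested transcripts was -0.12. Within sheep 1, 2 and 3 their medians were 0.07, 0.12 and -0.47, beside 0.02, 0.03 and -0.22 for all. Among the 34, 7 (20.6%) were higher with linseed in each of the 3 sheep, with 23% of all tested transcripts, and 10 (29.4%) were lower in each, with 26.2% of all. All 3 linseed libraries lay below all 3 controls in 5 genes (14.7%, background 7.83%), MMP1, MMP13, ITGAV, ITGB6 and CLDN1. The reverse order was found in 0 (background 13.3%). MMP13 and ITGB6 met the filter of 1 RPKM only through their controls, with linseed means of 0.276 and 0.428 RPKM. A linseed mean under 1 RPKM was also found in ITGA2, ITGA4, LAMA3, KRT6A and CDH24, and a control mean under 1 RPKM in CLDN15. With libraries rescaled by a median of ratios, the 5 became 4 (ITGAV, ITGB1, ITGB6 and MMP13, 11.8% against 13.6% of all), and MMP14 and MMP9 had every linseed library above every control (5.88% against 12.7% of all). With milk proteins taken out of the totals there were 7, the 5 with ITGA2 and ITGB1 (20.6% against 18.3% of all). On that scale 4 genes (ITGB2, KRT14, MMP14 and MMP9, 11.8% against 14% of all) stood higher in each sheep and KRT17, MMP19 and CLDN15 no longer did.

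Collagenases cleave the triple helix of fibrillar collagen, and both that were detected stood lower with linseed in each ewe. MMP13, collagenase 3 (NM_001166179.1), had 6.58, 6.66 and 1.80 RPKM in the control libraries of sheep 1, 2 and 3, and 0.286, 0.473 and 0.0709 RPKM with linseed. Every linseed value lay below every control value, and sheep 3 was lowest on both diets. Control libraries averaged 5.01 ± 2.78 RPKM and linseed libraries 0.276 ± 0.201 (SD, n = 3). The log2 change was -2.11 ± 0.57 (SE). The adjusted p of limma was 0.263 without the block and 0.0441 with it (SE 0.48).

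The linseed values of MMP13 rest on 2, 4 and 2 reads, against 211, 83 and 27 in the controls. Their 95% exact Poisson intervals, which cover counting error only, ran from 0.0346 to 1.03, 0.129 to 1.21 and 0.00859 to 0.256 RPKM. None of the 3 intervals reached the control value of the same ewe. The scale with 1 added to each RPKM understates the change of so low a gene, and with 0.1 added it was -3.72.

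MMP1, interstitial collagenase (XM_012095308.2), had 20.0, 9.95 and 2.37 RPKM in the controls of sheep 1, 2 and 3 and 1.27, 1.38 and 0.389 with linseed, on 13, 17 and 16 reads. The groups did not overlap on RPKM as deposited, and again the sheep 3 values were the lowest of each diet. Its log2 change was -2.23 ± 0.72, and -3.21, -2.20 and -1.28 in the 3 sheep. By limma the adjusted p was 0.263 without the block and 0.0455 with it. The third collagenase, MMP8 of neutrophil granules, was at 0 in all 6 libraries.

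The calls of the 2 collagenases depended on which sheep were in the blocked fit. Without sheep 1 their adjusted p by limma was 0.131 for MMP13 and 0.171 for MMP1, and without sheep 2 it was 0.120 and 0.0896. Without sheep 3 it was 0.0155 and 0.0150. After a correction for transcript length in the blocked fit it was 0.0868 and 0.0930. The direction was the same in each of these fits.

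MMP9, the gelatinase stored in neutrophil granules and made by macrophages, had 1.69, 19.6 and 62.8 RPKM in the controls and 34.5, 57.4 and 133.0 with linseed. Its level was higher with linseed in each ewe, by 3.72, 1.5 and 1.07 on the log2 scale, but the sheep differed so widely that the groups overlapped. The fitted change was 2.10 ± 1.03, with an adjusted p of 0.345 by limma (0.0662 with the block). The blocked fit gave 0.292 without sheep 1, 0.160 without sheep 2 and 0.0238 without sheep 3. Without the control library of sheep 1 the unblocked change was 0.85. The other gelatinase, MMP2, which fibroblasts make, did not exceed 0.674 RPKM.

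MMP14, the membrane-type enzyme that activates pro-MMP2 and cleaves collagen at the cell surface, had 9.82, 41.2 and 24.2 RPKM in controls and 33.8, 62.9 and 104.7 with linseed. It was higher in all 3 sheep (1.68, 0.60 and 2.07), with a fitted change of 1.45 ± 0.71 and an adjusted p of 0.343 (limma). Control sheep 2 stood above linseed sheep 1, so the groups overlapped. MMP19, singled out after its values were seen, had a like order: 3.75, 18.9 and 7.76 RPKM in controls and 12.3, 20.0 and 60.2 with linseed. Sheep 2 alone barely differed between diets, by 0.08.

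MMP12, the macrophage elastase, did not move one way. It had 52.1 and 110.3 RPKM in the controls of sheep 1 and 2 and 6.32 and 40.0 with linseed, whereas sheep 3 had 7.75 and then 14.6. The fitted change was -1.16 ± 0.95 (limma adjusted p 0.550), and the blocked fit gave -0.31 without sheep 1 (adjusted p 0.848), -1.02 without sheep 2 (0.571) and -2.15 without sheep 3 (0.0442). MMP7, matrilysin of glandular epithelium, stood between 0.807 and 6.17 RPKM and was higher with linseed in sheep 1 and 2 and lower in sheep 3. The remaining MMP16, MMP20 and MMP27 were detected at 0.166 RPKM or less.

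**Figure D2:**
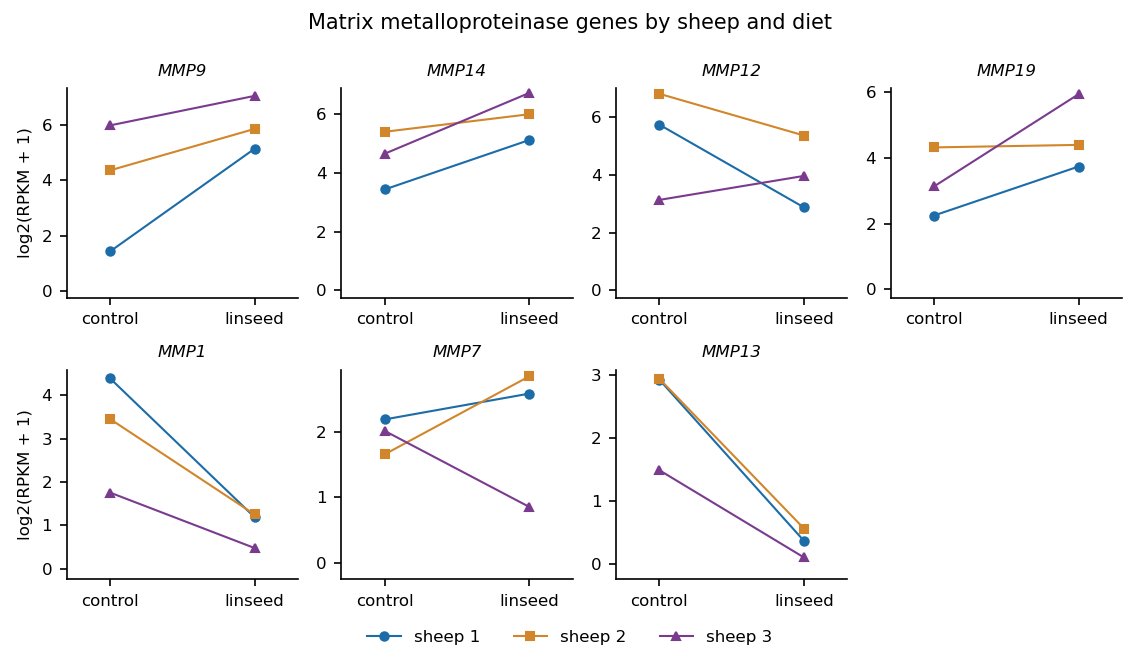
Level of the 7 tested metalloproteinase genes, as log2(RPKM + 1) on the y axis, on the control and linseed diets (x axis), with 1 line and symbol per sheep. On RPKM as deposited, MMP1 and MMP13 are lower with linseed in every sheep and MMP9, MMP14 and MMP19 higher, while the lines of MMP12 and MMP7 slope both ways.

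The collagenases summed to 26.6, 16.6 and 4.17 RPKM in the controls of sheep 1, 2 and 3 and to 1.56, 1.85 and 0.460 with linseed. Of their inhibitors, TIMP1 had 17.7, 133.8 and 107.1 RPKM in controls and 471.8, 562.0 and 360.2 with linseed, and TIMP2 rose alike in the blocked fit (limma adjusted p 0.0441, and 0.0473 for TIMP1). Of 9 tested inhibitors and activators of metalloproteinases, 3 were higher and 3 lower in every sheep, and their median was -0.62 against -0.12 for all tested transcripts. Neutrophil and macrophage markers moved beside the metalloproteinases. The 5 neutrophil markers other than MMP9, of 6 matched of 8 listed, summed to 420.2 to 962.4 RPKM in controls and 2224 to 3154 with linseed, and the 5 macrophage markers matched of 10 listed to 90.7 to 550.1 and 775.2 to 1369. Of these MRC1 was at 0 in linseed sheep 1, and the others were above 0 in every library. Their part in the metalloproteinase values was not tested.

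Integrins work as pairs of an alpha and a beta chain, some found on many cells and some on leukocytes. Of 6 tested chains that are not specific to leukocytes, 4 were lower with linseed in all 3 sheep (ITGB1, ITGAV, ITGB6 and ITGA2), 0 were higher and the median change was -1.25. Of 5 tested leukocyte chains, 2 were lower and 1 was higher in every ewe, and the median was -0.55. None of the 11 passed with or without the block of all 3 sheep. The difference between the 2 sets was not tested.

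ITGAV, the alpha chain that pairs with several beta chains to bind vitronectin and fibronectin, had 13.8, 3.64 and 5.90 RPKM in the controls and 1.16, 1.17 and 1.24 with linseed. The 3 linseed values were nearly equal and lay below every control. The log2 change was -1.83 ± 0.60, with an adjusted p of 0.263 by limma and 0.0613 with the block. ITGB6, an epithelial partner of ITGAV that activates TGF-beta, had 10.9, 0.817 and 2.31 RPKM and then 0.514, 0.708 and 0.0637. These groups did not overlap either, but the linseed values of ITGB6 rest on 6, 10 and 3 reads. The control value of sheep 2, the lowest control, rests on 17 reads. Its 95% exact Poisson interval began at 0.476 RPKM, below the linseed value of that ewe. The separation of the groups was therefore within counting error. Sheep 2 hardly differed (-0.09), and the change of -1.57 ± 0.68 leaned on sheep 1 (-2.97) and sheep 3 (-1.64). Without sheep 1 the blocked fit gave -0.86.

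ITGB1, the beta chain of most collagen, laminin and fibronectin receptors, had 8.47, 3.55 and 11.6 RPKM in controls. With linseed it had 0, 0.768 and 4.13 RPKM, on 0, 11 and 197 reads. A count of 0 in the shallow linseed library of sheep 1 allows up to 0.253 RPKM at 3 reads. Linseed sheep 3 overlapped with control sheep 2, and the log2 change was -1.97 ± 0.72 (limma adjusted p 0.272, and 0.0586 with the block). In the blocked fit its adjusted p was 0.326 without sheep 1, 0.0987 without sheep 2 and 0.0243 without sheep 3. ITGA2, the alpha chain of a collagen receptor with ITGB1, had 5.00, 1.72 and 1.20 RPKM and then 0.918, 1.21 and 0.220, a change of -0.93 ± 0.56.

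ITGB3, the beta chain of the platelet and osteoclast receptors, and ITGA9, which binds tenascin and osteopontin, were the other 2 tested chains of this set. ITGB3 was between 0.358 and 4.67 RPKM and lower with linseed in sheep 2 and 3 alone. ITGA9 differed between diets by 0.19 or less in every sheep. The sheep themselves differed more, with ITGA9 at 0.361 and 0.472 RPKM in sheep 1 and 2.54 and 3.06 in sheep 3.

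ITGB2, the common beta chain of leukocyte integrins, was the most abundant integrin gene by RPKM. It had 11.8, 44.8 and 81.9 RPKM in the controls of sheep 1, 2 and 3 and 36.2, 81.9 and 219.9 with linseed. It was higher with linseed in each ewe (1.54, 0.86 and 1.41), and sheep 1 had the lowest and sheep 3 the highest level on both diets. The fitted change was 1.27 ± 0.85, with an adjusted p of 0.465 by limma and 0.164 with the block.

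Of the alpha chains that pair with ITGB2, ITGAL and ITGAM were tested, and neither was higher with linseed in all 3 sheep. ITGAL, the alpha chain of the lymphocyte adhesion receptor for ICAM1, had 2.01, 4.09 and 55.0 RPKM in controls and 3.98, 4.70 and 11.9 with linseed. Control sheep 3 alone stood above the rest, and the change in that ewe was -2.12, with 0.73 and 0.16 in the other two. ITGAM, the alpha chain of the complement receptor of neutrophils and macrophages, had 1.90, 7.72 and 15.3 RPKM and then 1.58, 2.08 and 11.9. Unlike ITGB2, it was lower with linseed in each ewe (-0.17, -1.50 and -0.33 in sheep 1, 2 and 3). ITGAM and the next pair of genes were picked out after their values were seen.

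ITGA4, a chain used by lymphocytes to bind VCAM1, had 29.2 RPKM in control sheep 3 and 0 to 0.515 in the other 5 libraries. It met the level filter through that library alone. In the blocked fit without sheep 1 it was called lower, with an adjusted p of 0.0450 (limma), and it was not called without sheep 2 or without sheep 3. ITGAE, which binds E-cadherin on T cells within epithelium, had 24.8 RPKM there and 3.02 to 9.18 elsewhere. T cell markers were high in the same library: the 6 markers matched of 8 listed summed to 623.3 RPKM in control sheep 3 and to 8.48 to 161.9 in the others. Their part in these integrin values was not tested.

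ITGB1BP1, ITGB1BP2 and ITGB3BP carry the family's name but encode binding proteins, not integrin chains. ITGB1BP1, which binds the tail of ITGB1, had 15.3, 21.4 and 12.5 RPKM in controls and 5.52, 21.1 and 25.2 with linseed. It was lower in sheep 1, level in sheep 2 and higher in sheep 3 with linseed.

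**Figure D3:**
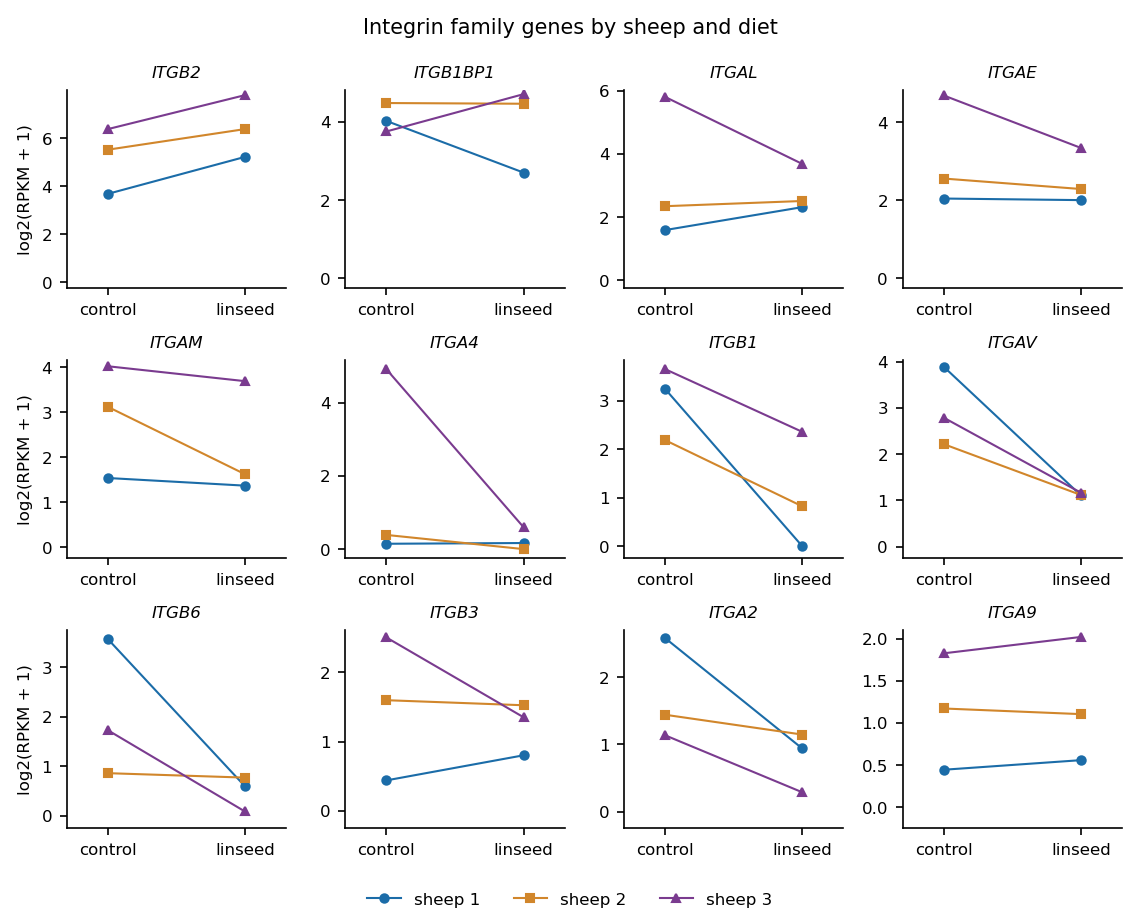
Level of the 12 tested integrin family genes as log2(RPKM + 1) (y axis) on each diet (x axis), with 1 line per sheep and a separate scale in each panel. ITGB2 is higher with linseed in each sheep, ITGAV and ITGB1 are lower in each, and ITGA4 and ITGAL are high in control sheep 3.

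CLDN3 and CLDN7 were the most abundant claudins. CLDN3, a sealing claudin of glandular epithelium, had 167.9, 87.9 and 20.5 RPKM in controls and 282.5, 506.7 and 7.30 with linseed. It was higher with linseed in sheep 1 and 2 and lower in sheep 3, by 0.75, 2.51 and -1.37. CLDN7, found along the basolateral membrane as well as the junction, had 305.5, 133.9 and 24.2 RPKM and then 114.9, 238.0 and 13.5. Here sheep 1 and 3 were lower and sheep 2 was higher. In both genes the 2 libraries of sheep 3 lay below the other 4.

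CLDN1, a barrier-forming claudin, was the only one of the 5 tested claudins that was lower in all 3 sheep. It had 14.4, 6.96 and 8.30 RPKM in controls and 2.86, 5.52 and 2.05 with linseed, on 9, 21 and 26 reads. Every linseed value lay below every control, and the changes in sheep 1, 2 and 3 were -1.99, -0.29 and -1.61. The log2 change was -1.30 ± 0.60 (limma adjusted p 0.328, and 0.141 with the block). Under median-of-ratios scaling the groups of CLDN1 overlapped.

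CLDN15, a pore-forming claudin that passes cations, was at a low level and higher in all 3 sheep, at 0.224, 1.06 and 0.405 RPKM in controls and 0.395, 1.76 and 3.57 with linseed. The log2 change was 0.77 ± 0.55 (limma adjusted p 0.487), and once milk proteins were taken out of the totals not every sheep was higher. CLDN6, known from embryonic epithelium, had 4.51, 6.60 and 1.34 RPKM in controls and 13.3, 16.5 and 0.712 with linseed. It was higher with linseed in sheep 1 and 2 and lower in sheep 3, as CLDN3 was. The other 8 claudins were detected but did not pass the level filter, with 2.57 RPKM (CLDN12, control sheep 1) the highest single value.

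Of the cadherins, CDH3, the P-cadherin of basal and myoepithelial cells, had 0.635, 5.27 and 0.348 RPKM in controls and 1.94, 2.65 and 0.500 with linseed. Both libraries of sheep 2 stood above the rest and both of sheep 3 below. CDH24, a cadherin that binds catenins, lay between 0.472 and 2.44 RPKM with its highest value in control sheep 3. Neither moved one way in the 3 ewes. Of the other 8 cadherins, CDH7, CDH9 and CDH11 were at 0 and 5 were detected at no more than 0.175 RPKM. E-cadherin, CDH1, was not matched to a transcript and is not analysed here.

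The keratins were led by KRT15, a type I keratin of basal cells in stratified epithelium. It had 138.7, 97.4 and 58.0 RPKM in controls and 310.6, 376.9 and 15.5 with linseed. Linseed values were the highest in sheep 1 and 2 and the lowest in sheep 3, with changes of 1.16, 1.94 and -1.84. The blocked fit gave it an adjusted p of 0.734 (limma).

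KRT17, a keratin of basal cells and of wounded epithelium, had 35.5, 14.0 and 0.805 RPKM in controls and 60.1, 95.6 and 2.24 with linseed. On RPKM as deposited it was higher in all 3 sheep (0.74, 2.69 and 0.84), and limma fitted a change of 1.42 ± 1.32 (adjusted p 0.596, and 0.134 with the block). KRT14, the basal keratin that pairs with KRT5, had 16.0, 4.21 and 0.676 RPKM and then 69.4, 10.8 and 1.41. It too was higher in each ewe (2.05, 1.18 and 0.52), at 1.25 ± 1.16 overall and an adjusted p of 0.596 (limma). Single libraries moved both values: the change of KRT14 was 0.0098 without linseed sheep 1 and 0.42 without control sheep 3, while KRT17 had 0.19 once control sheep 3 was left out and 0.50 with linseed sheep 2 left out. In both genes the groups overlapped and sheep 3 was lowest on each diet. The 6 markers of basal and myoepithelial cells outside these families, of 9 matched of 10 listed, summed to 2.48, 21.3 and 9.20 RPKM in controls and 31.4, 44.2 and 9.77 with linseed. Most of the linseed sum in sheep 1 and 2 was TAGLN, a smooth muscle actin-binding protein, at 26.8 and 41.0 RPKM. ACTA2 and CNN1, smooth muscle actin and calponin, were higher with linseed in sheep 1 and lower in sheep 2 (-0.52 and -0.86) and sheep 3 (-0.41 and -0.16). Of the 6 markers OXTR was at 0 throughout and TP63 was seen in linseed sheep 2 alone, at 0.134 RPKM, and their part in the keratin values was not tested.

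KRT13, a keratin of upper layers in moist stratified epithelium, had 18.0, 17.7 and 3.64 RPKM in controls and 47.1, 95.9 and 3.13 with linseed. The groups overlapped through sheep 3, where the 2 diets differed by -0.17, and the fitted change was 1.18 ± 1.07. KRT23 and KRT6A, the other 2 tested keratins, were lower with linseed in sheep 1 and higher in sheep 2 and 3. KRT23 reached 56.3 RPKM in control sheep 1, and KRT6A, induced in stressed epithelium, reached 2.77 RPKM there.

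The simple-epithelium keratin KRT8, which lies outside this set, had 17.6, 98.6 and 54.5 RPKM in controls and 354.9, 499.95 and 21.3 with linseed, again low in linseed sheep 3. Of the 23 keratins not tested, 12 were at 0 throughout and 11 were low. Among the low ones were KRT1 and KRT2, keratins of cornifying skin, KRT32 and KRT35, keratins of hair, and KRT78. KRT35 had the highest single value, 1.5 RPKM in control sheep 1.

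**Figure D4:**
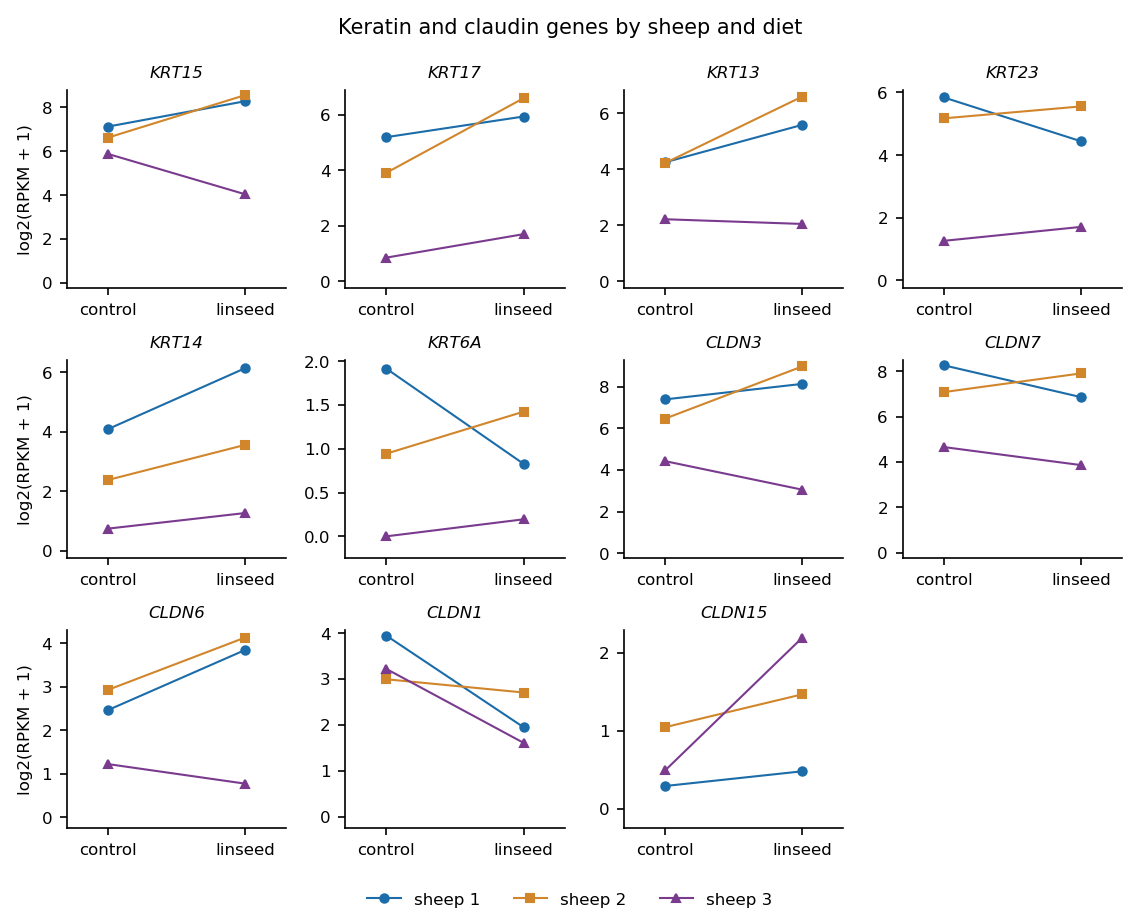
Level of the 6 tested keratins and 5 tested claudins as log2(RPKM + 1) (y axis) on the control and linseed diets (x axis), 1 line per sheep, with a separate scale in each panel. Sheep 3 lies below both other sheep on both diets in all 6 keratins and in CLDN3, CLDN7 and CLDN6, and CLDN1 is lower with linseed in each sheep.

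Epithelial genes of these families differed between ewes. Both libraries of sheep 3 lay below the other 4 in 10 of the 34 tested genes (29.4%), where 3.73% of all tested transcripts had this order. The 10 were all 6 tested keratins, CLDN3, CLDN6, CLDN7 and CDH3. Once milk proteins were taken out of the totals the same 10 genes kept it, beside 5.02% of all transcripts, and median-of-ratios scaling added ITGA2 and MMP7 to them (10.1% of all). Of the 10, KRT6A and CDH3 met the level filter only through sheep 1 and 2. In the control and linseed libraries of sheep 3 KRT6A had 0 and 0.144 RPKM, and CDH3 had 0.348 and 0.500 RPKM. The summed keratins stood at 170.2 to 628.2 RPKM in sheep 1 and 2 and at 66.2 and 25.2 RPKM in the control and linseed libraries of sheep 3. Of the 9 luminal and secretory markers tested, EPCAM, SFN, ELF5, CSN2, CSN3, LALBA and PAEP were lowest in the same ewe on each diet. Control SFN, however, was nearly equal in sheep 1, 2 and 3 (23.2, 23.8 and 23.2 RPKM). CD24 was instead highest in sheep 3 on each diet (286.9 and 51.7 RPKM), and control KRT8 was lowest in sheep 1. Their part in the keratin and claudin values was not tested.

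The opposite order, sheep 3 above the other 4, held in 7 of the 34 (20.6%): MMP9, ITGAL, ITGAE, ITGAM, ITGA4, LAMC1 and ITGA9. Among all tested transcripts 28.9% had that order. The position against the background turned with the scaling: with milk proteins taken out of the totals it was 20.6% against 17.4% of all, and under median-of-ratios scaling 14.7% against 9.36%. Sheep 1 was lowest in 7 (20.6%, background 13.4%), 6 of them integrin genes (ITGB2, ITGAL, ITGAE, ITGAM, ITGB3 and ITGA9) and the other CLDN15. Under median-of-ratios scaling the sheep 1 count was 2 (ITGA9 and ITGB3, with 5.15% of all). KRT14 alone had sheep 1 highest (background 1.04%) and CDH3 alone sheep 2 (background 1.94%).

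Laminins are the core of the basement membrane. LAMA3, the alpha chain of the laminin that anchors epithelium through hemidesmosomes, had 3.89, 5.33 and 0.477 RPKM in controls and 0.150, 2.16 and 0.0448 with linseed. It was lower in all 3 sheep (-2.09, -1.0 and -0.50), and the groups overlapped because control sheep 3 was below linseed sheep 2. The fitted change was -1.20 ± 0.68 (limma adjusted p 0.397, and 0.138 with the block), and -0.69 after the length correction. LAMC1, the gamma chain shared by most laminins, stayed between 1.22 and 2.35 RPKM in all 6 libraries.

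No collagen gene passed the level filter. COL1A2, a chain of the main fibrillar collagen, had the highest mean, with 0, 0.197 and 0 RPKM in controls and 0.439, 0.218 and 0.0109 with linseed. COL12A1 and COL9A1, collagens that attach to fibrils, came next, at or below 0.349 and 0.407 RPKM. COL3A1 and COL4A5 were at 0 in all libraries. For a transcript of 2000 nt, 3 reads corresponded to 0.0662 RPKM in the deepest library and 0.304 in the shallowest, the level that a count of 0 allows.

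The molecules that work beside these families were taken from lists of pathway genes. Of 9 matched tight junction partners 3 were tested, 2 of them lower with linseed in all 3 sheep and 0 higher. OCLN, occludin, had 37.1, 16.1 and 4.05 RPKM in controls and 1.05, 5.52 and 1.23 with linseed, a change of -2.26 ± 0.81 (limma adjusted p 0.266, and 0.0588 with the block). F11R, the junctional adhesion molecule A, had -1.07 ± 0.62. Of 4 tested adherens junction and desmosome partners 3 were lower in every ewe and 0 higher, and the median was -1.51. PERP, a desmosomal membrane protein, had -2.38 ± 0.77, and CTNNA1, alpha-catenin, -1.67 ± 0.62. Markers of luminal and secretory epithelium moved beside these genes and beside CLDN1 and ITGB6. Of 9 tested, 5 were lower with linseed in every ewe (EPCAM, CD24, ELF5, CSN2 and CSN3) and 0 higher, with a median of -1.10. EPCAM differed by -3.14, -0.51 and -1.81 in sheep 1, 2 and 3, and CD24 fell in the blocked fit (-2.44, limma adjusted p 0.0461). KRT8, LALBA and PAEP were higher in sheep 1 and 2 and lower in sheep 3. The part of these markers in the junction and integrin values was not tested.

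Integrin adaptors did not move together. Of 5 tested, 1 stood higher and 1 lower in every ewe, and the median was 0.33. RAP1B, a small GTPase that switches integrins on, had 81.0, 39.0 and 60.4 RPKM in controls and 6.42, 11.1 and 33.8 with linseed, lower in each ewe. PARVB, parvin beta, had 1.11 ± 0.58, and TLN1, talin, the linker of integrin tails to actin, was the most abundant at 12.5 to 105.5 RPKM. ICAM1, the ligand of ITGAL and ITGAM with ITGB2, was higher in each ewe, at 3.69, 20.1 and 22.4 RPKM and then 13.4, 30.5 and 46.8 (1.08 ± 0.77).

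Genes of collagen processing were more abundant than the collagens. Of 5 tested, 3 were higher with linseed in every ewe and 0 were lower, and the median was 0.89. CRTAP, a subunit of the collagen prolyl 3-hydroxylase complex, had 1.64 ± 0.63 and PCOLCE, which enhances procollagen cleavage, 1.59 ± 0.73. Of 3 tested matrix proteins outside the laminins and collagens, 2 were higher in all 3 sheep, SPARC (1.53 ± 0.74) and BGN (1.69 ± 0.69). Both had their top value in linseed sheep 1 (12.0 and 10.8 RPKM) and hardly differed in sheep 3. In sheep 1, 2 and 3 the changes were 3.65, 0.91 and 0.02 for SPARC and 3.39, 1.48 and 0.19 for BGN. VIM, vimentin, the intermediate filament of leukocytes and mesenchymal cells, had 176.8, 859.0 and 728.6 RPKM in controls and 803.9, 1556 and 2657 with linseed. No gene of these pathway lists passed without the block, and with it TIMP1 and TIMP2 alone did.

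The diet difference varied with transcript length over the whole table. With the tested transcripts divided by length into 5 equal classes, shortest first, the median change was 0.48, 0.17, -0.10, -0.33 and -0.51. The 34 tested genes had a median length of 2327 nt, against 2297 nt for all. MMP13 (1416 nt) and CLDN1 (636 nt) are short and lay below the median of their class, and MMP9 (2356 nt) and ITGB2 (2507 nt) lay above theirs. The longest, LAMA3, ITGA2, ITGA9 and LAMC1, lie in the class with the lowest median. After the length correction the changes were -2.35 for MMP13, -2.25 for MMP1, -1.60 for ITGAV, -0.43 for ITGA2, 2.17 for MMP9 and 1.38 for ITGB2.

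**Figure D5:**
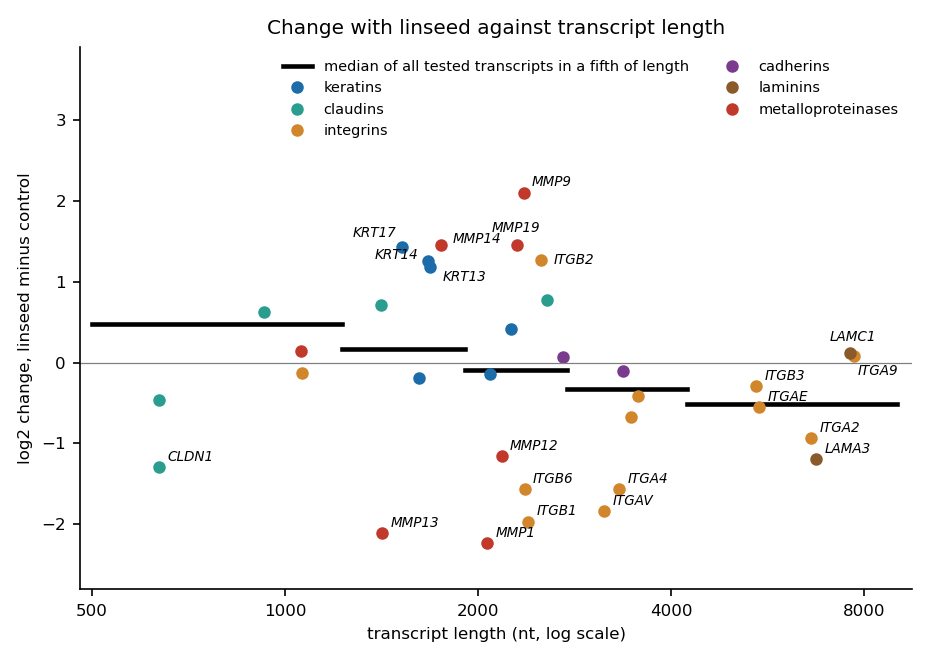
Fitted log2 change with linseed (y axis, linseed minus control, log2(RPKM + 1) scale) against transcript length (x axis, nt, log scale) for the 34 tested genes, coloured by family. Black lines are the medians of all tested transcripts in 5 length classes, and step down from 0.48 to -0.51. The first and last are drawn only within the plotted range. The collagenases, ITGB1, ITGAV, ITGB6, CLDN1, ITGA4 and MMP12 lie well below these medians. MMP9, MMP14, MMP19, ITGB2, KRT17, KRT14 and KRT13 lie well above.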

How the data were processed

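The authors deposited 1 table of RPKM for 49705 RefSeq transcripts in 6 libraries. Trimmomatic 0.33 is named as a tool, per the submitters' processing notes. The sources used here name neither aligner, build nor counter, nor whether counting used strand. How reads were divided between transcripts of a gene (11 of the 96 genes had several) or close paralogs, such as keratins, is unknown. Symbols came from a RefSeq table of assembly ARS-UI_Ramb_v3.0, used for names alone, with versions ignored (15836 transcripts, 31.9%, matched). Library totals and lengths were solved from the RPKM steps, within 0.002 reads. Tested on simulated data, the solving returned 6 of 6 totals, and exact reads for 99.2% of 2930 transcripts that had 100 or more.

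Those averaging 1 RPKM or more over the 6 libraries were tested as log2(RPKM + 1) with limma 3.58.1 in R 4.3.3 (mean-variance trend, two-sided, Benjamini-Hochberg over 15891 transcripts, adjusted p under 0.05). SE are from the fit without the block unless stated. A log2 change within 1 sheep is a plain difference on that scale. The pairing comes from the animal identifiers, the same in both groups. Deviations from group means correlated at 0.18, 0.25 and 0.40 in sheep 1, 2 and 3. Between different ewes they correlated at -0.40 to 0.24. The highest of these, control sheep 1 with linseed sheep 2, was above the value of sheep 1 itself. Within a group, libraries are different ewes. Values are given for the called genes, up to 4 of smallest p and up to 3 of highest mean in each family, and up to 2 of smallest p and the most abundant in each pathway list; others were chosen after their values were seen. The families, lists, tests and first set of alternatives were chosen with earlier results of these data known. Alternatives were other scalings, filters, pseudocounts, weights, counts and omitted libraries or sheep.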

Additional observations from a re-analysis of the deposited data

How the results depend on the processing

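Without the block, limma called 0 of 15891 transcripts (2464 at an unadjusted p under 0.05), as did limma-voom on the solved reads (2188 unadjusted). With the replicate block it called 416 transcripts and 2 of the 34 genes. With the block and the length correction it called 0. The block without sheep 1, 2 or 3, chosen after seeing the data, called 252, 173 and 2000 of the 15891 transcripts. Of the 34 genes it called 1 (ITGA4), 0 and 5 (MMP1, MMP13, MMP12, ITGB1 and, higher, MMP9). Array weights called 5461 of the 15891 transcripts (2919 higher, 2542 lower) and 11 of the 34 genes (6 higher, 5 lower), a like share of each. The weights were 25.6 for linseed sheep 2 and 0.237 to 1.73 for the others. Leaving milk proteins out of the total moved the median of the 34 genes from -0.13 to -0.51. The median over all transcripts went from -0.12 to -0.52. On that scale 4 genes stood higher in every sheep (11.8%, with 14% of all) and 13 lower (38.2%, with 38.9% of all). Among 377 fitted changes of 16 named genes under 24 other settings, 14 passed and 0 reversed. These 16 were kept because their change exceeded its SE in the fit without the block, which makes a reversal unlikely. Some changes smaller than their SE did reverse. With milk proteins out of the total KRT15 went from 0.42 to -0.18 and LAMC1 from 0.11 to -0.29. After the length correction MMP7 went from 0.14 to -0.26. None of the 16 passed without the block, so none could lose a call, and the block, no filter and the 5 RPKM filter leave a fitted change as it was. Sizes moved more: over the settings KRT14 ranged from 0.0098 to 2.44, KRT17 from 0.19 to 2.95, KRT13 from 0.26 to 2.53, MMP9 from 0.85 to 3.13, ITGB2 from 0.51 to 1.89 and MMP12 from -2.20 to -0.31. The cause was not tested. A gene of 2000 nt with 1 read had 0.0221 RPKM in the deepest library and 0.101 in the shallowest, which limits the low collagenase values.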

Other observations

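Some genes under the level filter, picked out after their values were seen, had an uneven spread between the diets. ITGA2B, the platelet and megakaryocyte integrin alpha chain, had 0, 0 and 0.225 RPKM in the controls of sheep 1, 2 and 3 and 1.15, 0.299 and 0.853 with linseed, the last 3 on 19, 6 and 57 reads. Every linseed value lay above every control value. The platelet chemokine gene PPBP did not share this order, with its highest value, 11.2 RPKM, in control sheep 3. ITGB3BP had 1.15, 0.583 and 1.85 RPKM in controls and 0, 0 and 0.516 with linseed, and CLDN8, a claudin that blocks cations, had 1.28, 0.213 and 1.77 and then 0, 0.627 and 0.283. No test was made on these genes, and their reads in a library ranged from 0 to 62.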
